A study of Mus musculus with 8 samples.

Results

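The tripartite motif (TRIM) family was described in brain tissue (cortex and hippocampus) from 8 mice, each 1.5 months old. Members were the genes whose deposited symbol is Trim followed by a number and at most 1 lower-case letter, with at least 15 counts summed over the 8 libraries. Of 67 genes with such a symbol among the 43346 listed, 61 met this minimum. One group expressed green fluorescent protein (labelled GFP) and the other the same protein fused to glycine-arginine repeats (labelled GFP-GR100), both from a plasmid based on an adeno-associated virus vector. Each group held 4 animals, 2 females (libraries 1 and 2) and 2 males (libraries 3 and 4), with 1 library of total RNA per animal, so that GFP is present in the controls too. The listed brain weight was 111.4 to 126.6 mg in GFP and 71.9 to 85.1 mg in GFP-GR100. Weight and group therefore cannot be told apart, and whether weight bears on any level was not tested. Glycine-arginine dipeptides are among the products of the expanded C9orf72 repeat in frontotemporal dementia and amyotrophic lateral sclerosis, and the series title names protein translation and stress granules. For the transgene, the promoter and the cells that carry it are not given in the labels. In such whole-tissue RNA, more cells of a type and more RNA per cell cannot be told apart.

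Most TRIM proteins carry a RING domain that transfers ubiquitin, followed by B-box zinc fingers and a coiled coil through which they form dimers. The C-terminal domain differs between subfamilies and sets what they bind. In the mouse, relatives of the primate retroviral restriction factor TRIM5 form a compact group of duplicated genes on chromosome 7 (Trim5, Trim6, Trim12, Trim30 and Trim34), and several of them are known targets of type I interferon. Other members are known from neurons, where they act on the cytoskeleton, on axon guidance receptors and on proteins of the synapse.

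The promoter sequences of the cluster show what some of its genes share outside the expression values. RefSeq promoters (build GRCm38.p6, 250 bases before to 50 after a start site) were found for 48 of the 61 members by symbol and searched for GAAANNGAAA on both strands, the core of the interferon-stimulated response element (ISRE) bound by interferon regulatory factors. The core was present in promoters of 6 of the 10 cluster genes (Trim5, Trim12a, Trim12c, Trim30a, Trim30d and Trim34a). It was absent from those of Trim30b and Trim34b, which both rose, and of Trim6 and Trim30c. It was present in 3.44% of all 32851 promoters in that table and in at least 1 promoter of 3.99% of its genes. The stretches below are printed 5′ to 3′ on the transcribed strand because they carry these matches, with each match in capitals. In all 6 the match to GAAANNGAAA is on the opposite strand, so that the reverse complement is printed.

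Trim30a, chr7:104465194-104465259, minus strand: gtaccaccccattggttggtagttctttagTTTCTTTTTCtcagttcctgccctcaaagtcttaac
Trim30d, chr7:104507851-104507920, minus strand: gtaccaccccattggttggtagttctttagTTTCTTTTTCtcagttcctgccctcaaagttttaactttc
Trim12c, chr7:104353350-104353408, minus strand: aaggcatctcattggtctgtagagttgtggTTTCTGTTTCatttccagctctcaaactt
Trim5, chr7:104288116-104288185, minus strand: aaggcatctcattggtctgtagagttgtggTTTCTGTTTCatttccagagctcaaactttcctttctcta
Trim12a, chr7:104315466-104315495, minus strand: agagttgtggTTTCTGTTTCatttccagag
Trim34a, chr7:104244457-104244486, plus strand: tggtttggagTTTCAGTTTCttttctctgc

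The stretches of Trim30a and Trim30d hold the same match in the same surroundings, and those of Trim5, Trim12a and Trim12c share another. The printed match ended 20 to 40 bases before the start site in Trim12c, Trim30a, Trim30d and Trim5 and lay at bases 11 to 20 after it in Trim12a and Trim34a. A second promoter of Trim30a held a match at bases 3 to 12 after its own start site. Outside the cluster, among members that rose and had a promoter in the table, those of Trim25, Trim56 and Trim69 held no core, while a promoter of Trim21 held 2 overlapping matches within its first 29 transcribed bases, shown here as the window around the first, chr7:102565450-102565479 on the minus strand: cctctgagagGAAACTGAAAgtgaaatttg. Trim26, which was not called, also held 2 overlapping matches, at positions -160 to -151 and -154 to -145 from its start site. Of the 6 neuronal members with a promoter in the table, Trim2 held the core in 1 of its promoters. The gamma-activated site TTCNNNGAA, also searched on both strands, was present in 8.3% of all promoters and, within the cluster, in that of Trim30c alone of the 10 genes. A match describes letters in this window only.

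Libraries held 65880460 to 89113010 counts, so that 3 counts correspond to 0.0337 to 0.0455 CPM (counts scaled to library size). This range uses library totals alone, while the other CPM values here are also scaled by the trimmed mean of M-values. Loci with ribosomal RNA sequence (Yam1, AY036118 and Lars2) took 2.76% to 11.4% of counts, with the higher shares in GFP 1, GFP 2 and GFP-GR100 3 and 4. Markers of neurons, astrocytes, oligodendrocytes and microglia were present, as the tissue label implies. GFP-GR100 4 had the lowest summed level of excitatory neuron markers (3849 CPM, against 4622 to 5706 CPM in the other libraries). GFP 3 had the highest summed level of microglia markers among GFP libraries (640 CPM, against 454 to 476 CPM). Calls that rest on these libraries are given without them below.

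Of the 61 members, 55 passed the filter on low counts and were tested with edgeR's quasi-likelihood test, with p-values adjusted over all 20987 genes tested. In GFP-GR100, 13 members rose, where 2.19% of all tested genes rose, and 0 fell, where 0.324% of all tested genes fell. No member had an unadjusted p under 0.05 with a negative fold change, and DESeq2 and limma-voom also called 13 higher and 0 lower. The members that rose were 8 of the 9 tested genes of the chromosome 7 cluster, together with Trim14, Trim21, Trim25, Trim56 and Trim69. For 16 of the 55 tested members every GFP-GR100 library was above every GFP library, as for 5.03% of all tested genes. The reverse held for 0 tested members and for 3.03% of all tested genes. The 3 of these 16 that were not called were Trim6, Trim11 and Trim26. The median log2 fold change was 0.14 over the tested members and -0.02 over all tested genes. Without GFP 3 and GFP-GR100 4, 12 of the 13 calls were kept, and that of Trim30b was lost (adjusted p = 0.0522).

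**Figure D1:**
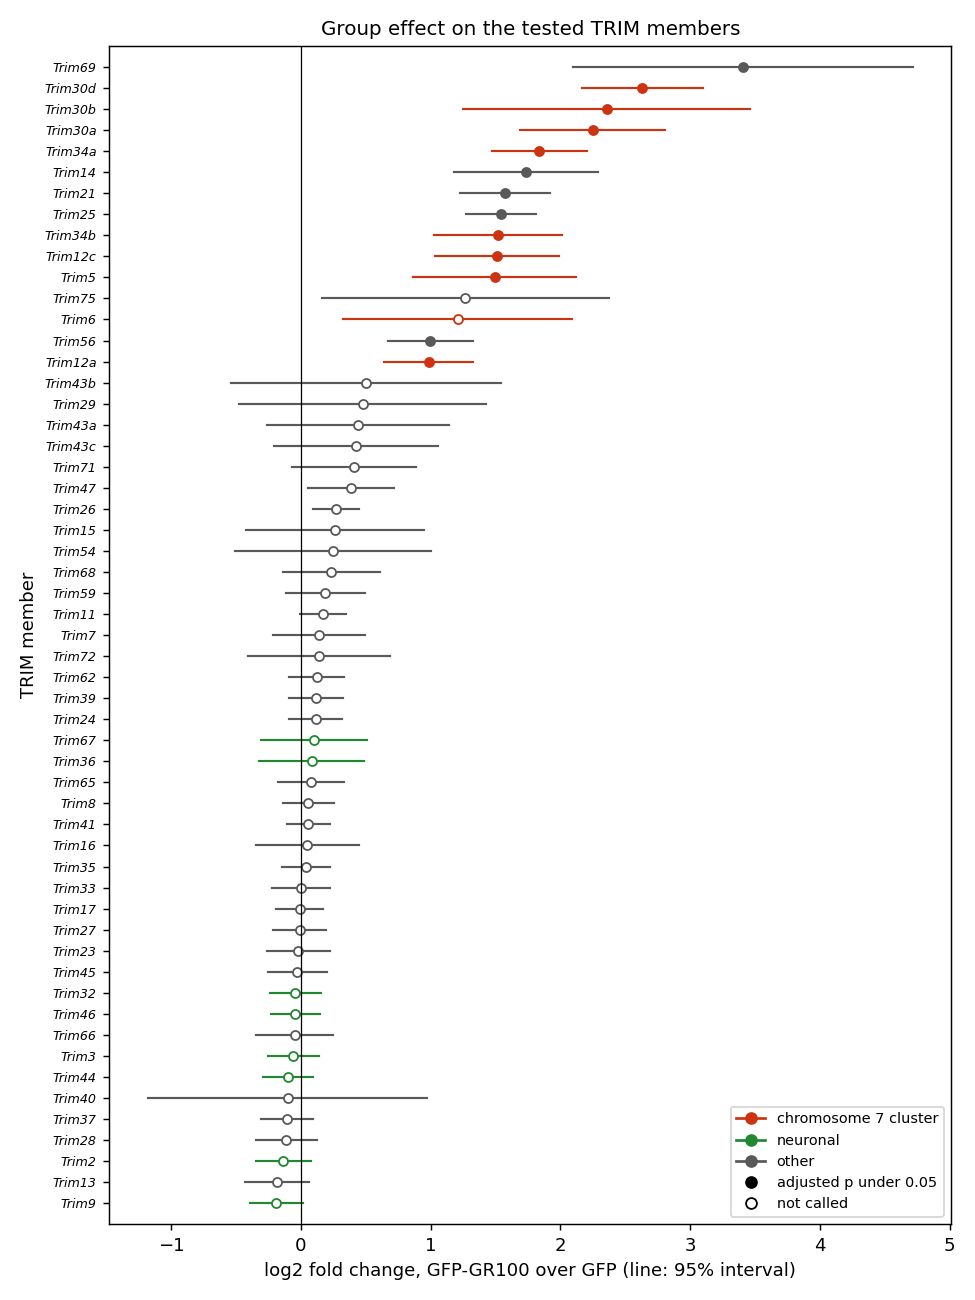
Log2 fold changes (GFP-GR100 against GFP) of the 55 tested TRIM members, with the 95% interval as a line, filled points for an adjusted p under 0.05 and colours for the chromosome 7 cluster, the neuronal members and the rest. The cluster lies between 0.98 and 2.63, and the neuronal members between -0.19 and 0.10.

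The cluster spans 289 kb of chromosome 7, from 104218793 to 104507849 on mm10. Its 10 members together gave 17.4, 15, 17.1 and 10.5 CPM in GFP 1 to 4 and 40.0, 46.4, 54.0 and 58.9 CPM in GFP-GR100 1 to 4. The groups did not overlap, and the ratio of the means was 3.32. Reads of the cluster per 1000 reads of the 8 neuronal members, a ratio that does not depend on how libraries are scaled, numbered 8.41 to 16.1 in GFP and 32.5 to 57.6 in GFP-GR100. The median log2 fold change of the 9 tested genes was 1.52.

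The Trim30 genes had the largest rises within the cluster. Trim30a, which is known to dampen Toll-like receptor signalling by acting on TAB2 and TAB3, lies from 104409025 to 104465193. It was at 3.71, 2.11, 3.44 and 1.70 CPM in GFP 1 to 4 and at 10.8, 12.3, 13.7 and 15.4 CPM in GFP-GR100 1 to 4. The lowest GFP-GR100 library was thus well above the highest GFP library (log2 fold change 2.25, SE 0.25, adjusted p = 0.00116). Its neighbour Trim30d, from 104470014 to 104507849, was at 1.62, 1.11, 1.59 and 0.844 CPM in GFP and 6.25, 8.62, 8.27 and 8.77 CPM in GFP-GR100. All GFP-GR100 libraries stood far from the GFP range, and the fold change was 6.19 (log2 fold change 2.63, SE 0.21, adjusted p = 4.23e-05). Trim30b was much lower, with 2, 14, 12 and 3 counts in GFP and 33, 29, 60 and 45 counts in GFP-GR100. It passed the filter on low counts through its GFP-GR100 libraries, the group in which it was higher. It rose by 2.36 on the log2 scale (SE 0.51, adjusted p = 0.0266), with the call lost without GFP 1, 3 or 4 or GFP-GR100 2 or 3 (log2 fold change from 1.996 to 2.492, adjusted p from 0.0587 to 0.11). Without GFP 2, which had the most counts of GFP, the log2 fold change was 3.11 (adjusted p = 0.00614). Trim30c, with 62 counts in all, did not pass the filter. It had 4, 2, 4 and 4 counts in GFP and 3, 17, 23 and 5 counts in GFP-GR100, and the groups overlapped.

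Trim5, Trim12a and Trim12c are the mouse counterparts of primate TRIM5, and Trim12c is known to promote interferon production through TRAF6. Trim12c was at 3.07, 3.07, 2.41 and 1.53 CPM in GFP and 6.25, 6.12, 7.04 and 8.90 CPM in GFP-GR100 (log2 fold change 1.51, SE 0.22, adjusted p = 0.0028). Trim12a was at 5.52, 4.92, 5.29 and 3.88 CPM in GFP and 7.69, 8.50, 11.8 and 11.3 CPM in GFP-GR100. With a log2 fold change of 0.98 (SE 0.16, adjusted p = 0.00436) it had the smallest rise of the cluster genes that were called. Trim5 was at 0.742, 0.716, 0.622 and 0.372 CPM in GFP and 1.42, 1.39, 1.47 and 2.64 CPM in GFP-GR100. Its highest library, GFP-GR100 4, stood apart from the other GFP-GR100 libraries, and the log2 fold change was 1.49 with it (SE 0.29, adjusted p = 0.0138) and 1.2 without it (adjusted p = 0.0183).

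Trim34a and Trim34b are close copies of each other. Trim34a was at 1.85, 2.04, 2.48 and 1.56 CPM in GFP and 5.46, 6.56, 8.31 and 8.37 CPM in GFP-GR100 (log2 fold change 1.84, SE 0.17, adjusted p = 7.96e-05). Trim34b was at 0.627, 0.635, 0.899 and 0.471 CPM in GFP and 1.47, 1.91, 2.01 and 2.21 CPM in GFP-GR100 (log2 fold change 1.52, SE 0.23, adjusted p = 0.00248). Neither gene's groups overlapped. Trim6, which is known to make ubiquitin chains that help activate the kinase IKBKE, was at 0.165, 0.189, 0.178 and 0.0869 CPM in GFP and 0.241, 0.431, 0.271 and 0.497 CPM in GFP-GR100. These values did not overlap either, but the gene was not called (log2 fold change 1.21, SE 0.41, adjusted p = 0.176).

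**Figure D2:**
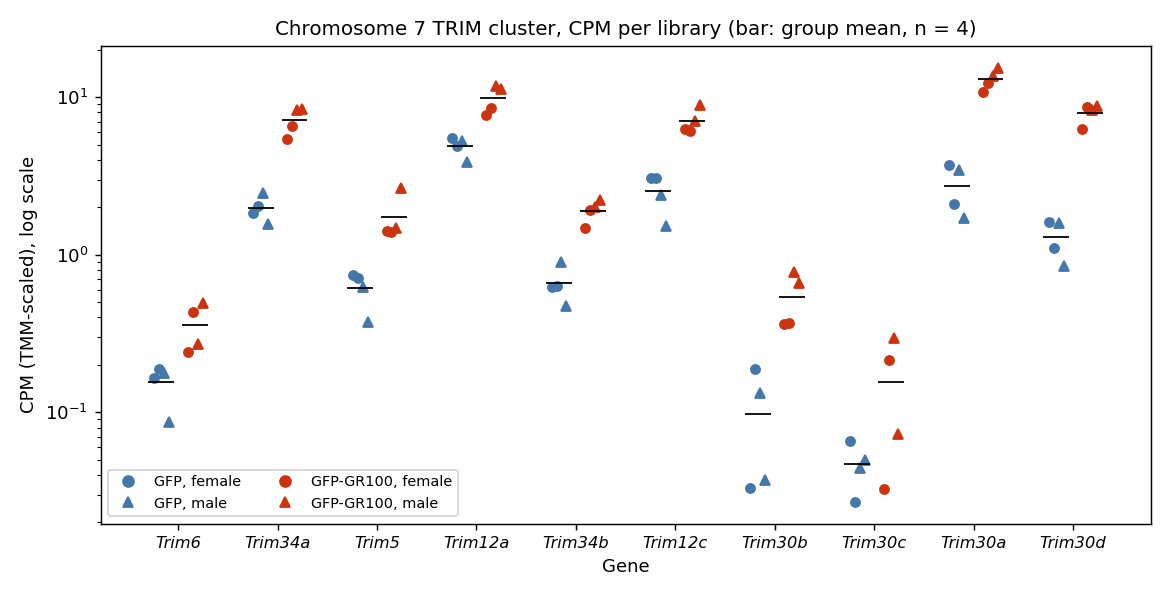
CPM per library on a log axis for the 10 genes of the chromosome 7 cluster, in order of position, where circles are females, triangles males and the bar is the mean of the group (n = 4). The groups overlap for Trim30c only.

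The values of single cluster genes are less certain than the sum of the cluster, because these genes are copies of one another. Of the distinct stretches of 50 bases in the GENCODE M21 transcripts of Trim34b, 56.8% also occur in Trim34a, and of those of Trim34a, 39.8% occur in Trim34b. Counting all other genes and both strands, 59.7% of the stretches of Trim34a are shared. Trim5 shares 23.5% of its stretches with Trim12c. Only 5.98% of the stretches of Trim30a occur in Trim30d, so these genes are more distinct. The deposited model of Trim34a, from 104244457 to 104340693, also runs across Trim5, Trim12a and Trim34b and into Trim12c, while M21 ends it at 104262234. That of Trim34b, from 104300230 to 104336909, overlaps Trim12a, while M21 starts Trim34b at 104329471. These are overlaps of gene spans, and overlap of exons in the deposited models was not examined. In M21, Trim34a and Trim34b lie on the plus strand, and Trim5, Trim12a and Trim12c on the minus strand. The labels do not say how reads that fit several genes were counted, or whether counting used strand.

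Levels per length put the cluster low in GFP and changed its order in GFP-GR100. In deposited RPKM (reads scaled by gene length and library size), the mean levels in GFP were highest for Trim12a (0.827), Trim12c (0.654) and Trim30a (0.603), followed by Trim34a (0.456) and Trim30d (0.334). In GFP-GR100, Trim30a was first with 3.02 RPKM and a range of 2.52 to 3.55 RPKM, above the range of Trim30d (1.71 to 2.39 RPKM). Trim30d (mean 2.17 RPKM), Trim12c (1.93 RPKM), Trim12a (1.73 RPKM) and Trim34a (1.72 RPKM) followed with overlapping ranges, and no test was run between genes. Trim6, Trim30b and Trim30c stayed at or under 0.102 RPKM on average in both groups.

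Most tested genes around the cluster were not called. Of 46 tested genes outside the cluster list but within 2 Mb of it, 3 rose and 0 fell, with a median log2 fold change of 0.08. Over all tested genes, 2.19% rose and 0.324% fell. The 3 that rose were Trim21, Gm15135, whose start lies between those of Trim34a and Trim5, and Gm8995. They are named because they are few. Trim68, near Trim21, was not called (log2 fold change 0.23, adjusted p = 0.524), nor was the neuronal member Trim3 on the other side of the cluster (adjusted p = 0.778).

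**Figure D3:**
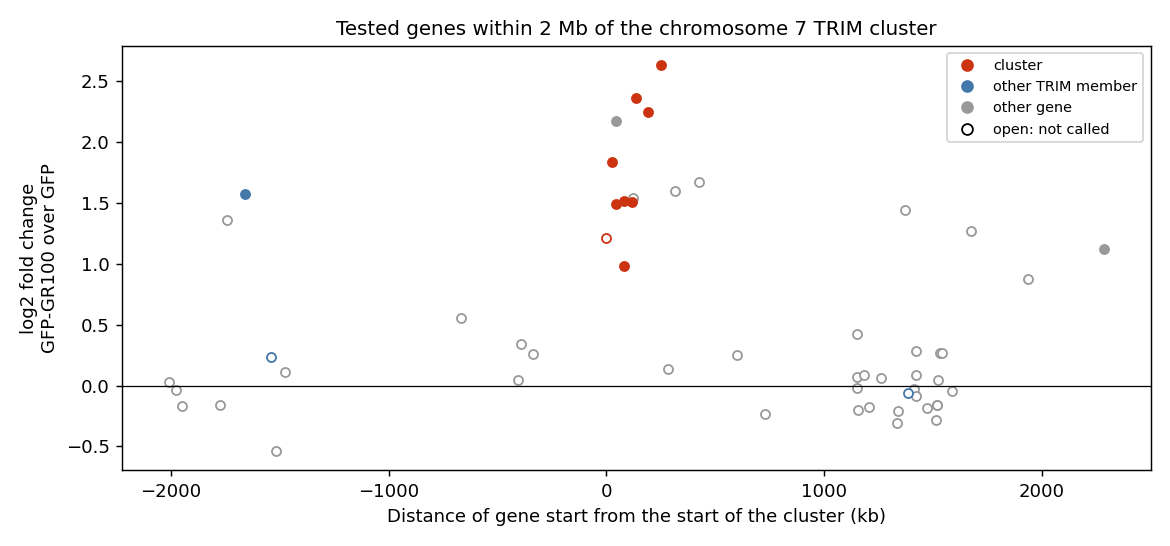
Log2 fold changes (GFP-GR100 against GFP) of the 55 tested genes within 2 Mb of the chromosome 7 cluster, against the distance of the gene start from the start of the cluster in kb, with filled points for an adjusted p under 0.05. The cluster genes and Gm15135, near 0 kb, and Trim21, at -1661 kb, stand above most of the other genes.

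Summed, the neuronal members were far more abundant than the cluster, and no neuronal member passed the test in either direction. Of 8, 0 were called higher or lower by edgeR, DESeq2 or limma-voom, and 0 had an unadjusted p under 0.05. Over all tested genes, edgeR called 2.19% higher and 0.324% lower. Their groups overlapped in every case. For 5.03% of all tested genes every GFP-GR100 library was above every GFP library, and for 3.03% below. At these shares, 0 of 8 does not set the neuronal members apart from other genes. The summed level was 1344, 1244, 1059 and 1252 CPM in GFP 1 to 4 and 1231, 1213, 1077 and 1022 CPM in GFP-GR100 1 to 4. The median log2 fold change was -0.05, against 1.52 in the chromosome 7 cluster and -0.02 over all tested genes.

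Trim9, which binds the netrin receptor DCC and the synaptic protein SNAP25, had the lowest fold change of all tested members. It was at 267, 253, 233 and 294 CPM in GFP and 244, 248, 216 and 214 CPM in GFP-GR100 (log2 fold change -0.19, 95% interval -0.39 to 0.02, adjusted p = 0.354). Its close relative Trim67 was far lower, at 6.78, 9.81, 5.65 and 4.83 CPM in GFP and 6.62, 7.14, 6.10 and 8.48 CPM in GFP-GR100. The interval of Trim67 was -0.31 to 0.51. Trim2, a ligase for neurofilament light chain, was at 333, 277, 201 and 244 CPM in GFP and 274, 248, 219 and 213 CPM in GFP-GR100 (interval -0.35 to 0.08). Its relative Trim3, which acts on the postsynaptic scaffold GKAP, was at 95.8, 101.5, 97.3 and 106.6 CPM in GFP and 101.9, 107.8, 94.3 and 82.4 CPM in GFP-GR100 (interval -0.26 to 0.14).

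Trim32, known from neural progenitors and muscle, was at 181, 180.2, 172 and 198 CPM in GFP and 194, 191, 173 and 154 CPM in GFP-GR100 (interval -0.24 to 0.16). Trim44, an abundant brain member without a RING domain, was at 377, 337, 265 and 314 CPM in GFP and 322, 321, 291 and 269 CPM in GFP-GR100 (interval -0.29 to 0.09). Trim46, which organises microtubules of the axon initial segment, was at 75.2, 77.2, 78.9 and 86.0 CPM in GFP and 82.0, 84.5, 70.1 and 72.3 CPM in GFP-GR100 (interval -0.23 to 0.15). In each of these 3 genes the GFP-GR100 males were below the GFP-GR100 females, but these males also had the higher share of ribosomal RNA counts. Trim36 was at 8.36, 7.32, 6.74 and 4.69 CPM in GFP and 6.16, 6.45, 6.76 and 9.18 CPM in GFP-GR100 (interval -0.33 to 0.49).

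**Figure D4:**
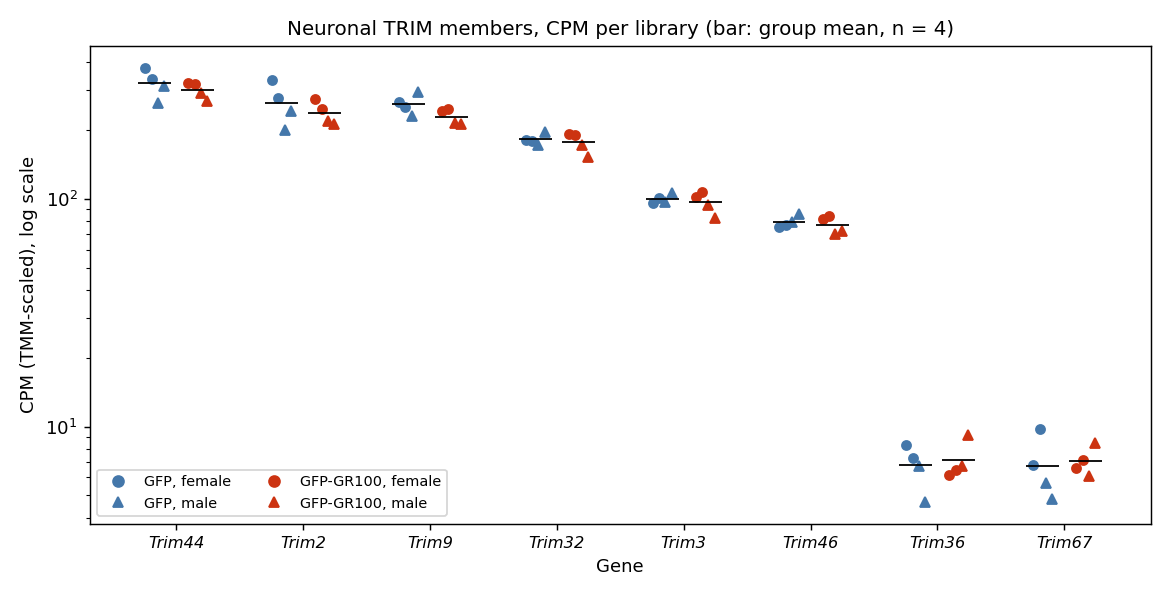
CPM per library on a log axis for the 8 neuronal TRIM members, in order of their GFP mean, where circles are females, triangles males and the bar is the mean of the group (n = 4). The groups overlap for all 8 genes.

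Per length, Trim44 (55.8 RPKM), Trim32 (55.3 RPKM) and Trim37 (54.8 RPKM) had the highest GFP means of all members, with ranges that overlapped. Trim37, a ligase known from peroxisomes and centrosomes, was at 334 to 491 CPM in GFP and 344 to 398 CPM in GFP-GR100 and was not called (adjusted p = 0.59). Trim9 followed among the neuronal members with 34.4 RPKM, then Trim3 (21.5 RPKM) and Trim46 (20.5 RPKM), whose ranges overlapped, then Trim2 (14.1 RPKM). Trim36 (1.36 RPKM) and Trim67 (0.748 RPKM) were lowest, and Trim67 was below the GFP mean of Trim12a (0.827 RPKM). In GFP-GR100, Trim36 (1.5 RPKM) and Trim67 (0.822 RPKM) were below the means of Trim30a (3.02 RPKM), Trim30d (2.17 RPKM), Trim12c (1.93 RPKM), Trim12a (1.73 RPKM) and Trim34a (1.72 RPKM).

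Outside the cluster, members known for antiviral signalling split into those that rose and those that did not pass. Of 10 tested, 4 rose, 0 fell and the median log2 fold change was 0.18, where 2.19% of all tested genes rose and 0.324% fell. Trim25, the ligase that activates the RNA sensor RIG-I, lies on chromosome 11 from 88999376 to 89020293. It was at 9.79, 7.43, 7.78 and 6.80 CPM in GFP and 21.3, 24.9, 20.6 and 25.6 CPM in GFP-GR100. The groups were widely apart (log2 fold change 1.54, SE 0.12, adjusted p = 2.55e-05), and this was the smallest adjusted p of all members. Trim21, a cytosolic antibody receptor on chromosome 7 from 102557922 to 102565469, was at 2.92, 2.35, 3.01 and 1.95 CPM in GFP and 6.69, 7.70, 8.59 and 7.5 CPM in GFP-GR100. Its fold change was 2.98 (adjusted p = 0.000186).

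Trim14, an adaptor of the signalling protein MAVS, was at 0.346, 0.324, 0.533 and 0.298 CPM in GFP and 0.985, 1.34, 1.49 and 1.2 CPM in GFP-GR100 (log2 fold change 1.74, SE 0.25, adjusted p = 0.00223). Exons of genes on the opposite strand, mostly Nans, cover 1650 of its 4338 exonic bases in M21, and without a stated strand setting their reads cannot be told apart. Nans itself was at 15.1 ± 3.1 CPM (SD, n = 4) in GFP and 13.4 ± 0.999 CPM (SD, n = 4) in GFP-GR100 and was not called. Trim56, which takes part in STING and TLR3 signalling, was at 10.6, 9.87, 5.15 and 5.92 CPM in GFP and 15.3, 16.2, 13.3 and 15.6 CPM in GFP-GR100 (log2 fold change 1.00, SE 0.15, adjusted p = 0.0028). Within GFP, both females were above both males for this gene, and these females also had the higher share of ribosomal RNA counts. Trim8, Trim13, Trim23, Trim26, Trim35 and Trim65 were not called, and Trim38, with 43 counts in all, was not tested.

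Trim69 had the highest fitted fold change of the tested members but rests on few reads. It passed the filter on low counts only through GFP-GR100, the group in which it was higher, so its place in this ranking depends on that group. Its counts were 0, 2, 6 and 1 in GFP and 30, 14, 32 and 21 in GFP-GR100, or 0.0265 ± 0.0289 CPM and 0.307 ± 0.0975 CPM (SD, n = 4). All GFP-GR100 libraries were above all GFP libraries, and the gene was called (log2 fold change 3.41, SE 0.60, adjusted p = 0.00757). In the other fits in which it was tested its adjusted p was at most 0.0451, while the fitted size ranged from 0.20 on the log2(RPKM + 1) scale to 4.35 without GFP 3 and GFP-GR100 4. Without GFP 3 alone, the GFP library with the most counts of this gene, it was 4.27.

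The 42 tested members that were not called had log2 fold changes between -0.19 and 1.27, the highest in Trim75, with 101 counts in all. Trim26, in the major histocompatibility region, was at 17.4, 17.8, 20.1 and 20.8 CPM in GFP and 21.1, 21.1, 23.2 and 26.5 CPM in GFP-GR100, without overlap but not called (log2 fold change 0.27, adjusted p = 0.124). Of the 4 bromodomain members that act on chromatin, Trim24, Trim28, Trim33 and Trim66, 0 were called, with 0 at an unadjusted p under 0.05. Trim24 had the smallest p of them, with 28.6 ± 3.44 CPM in GFP and 30.8 ± 1.6 CPM in GFP-GR100 (SD, n = 4, adjusted p = 0.571). Of the muscle members, Trim54 was at 0.395 ± 0.163 and 0.468 ± 0.091 CPM (SD, n = 4, adjusted p = 0.754). Trim10, Trim30c, Trim38, Trim58, Trim61 and Trim63 were not tested. Of these, Trim10 had 2, 2, 0 and 2 counts in GFP and 15, 6, 5 and 4 counts in GFP-GR100, without overlap. The member nearest the count minimum was Trim61 with 22 counts, and the highest genes under it were Trim50 and Trim55 with 10 counts each, then Trim31, Trim42, Trim52 and Trim60 with 9, 4, 2 and 0.

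The rise of the cluster was measured in both sexes, with the highest value in a male GFP-GR100 library for all 10 genes. Its summed level was 15 and 17.4 CPM in GFP females, 10.5 and 17.1 CPM in GFP males, 40.0 and 46.4 CPM in GFP-GR100 females and 54.0 and 58.9 CPM in GFP-GR100 males. The sex difference in the group effect was above 0 (larger in males) for all 9 tested cluster genes, but none passed. The share of counts from ribosomal RNA loci followed the same pattern. It was 6.74% to 11.4% in GFP females and GFP-GR100 males, and 2.76% to 3.8% in GFP males and GFP-GR100 females. For any gene, the sex difference in the group effect therefore cannot be told apart from that share. GFP 4, a male, was the lowest GFP library for 8 of the 10 genes. For these counts of cluster genes by library or sex, the share over all tested genes was not counted. The 10 genes are copies of one another with shared stretches, so they do not count as independent. Over the family, 0 of 55 members had an adjusted p under 0.05 in this edgeR test, where 0.0524% of all tested genes did, and 12 had an unadjusted p under 0.05, as did 16.4% of all tested genes. The smallest p were those of Trim56 (log2 difference 0.77, adjusted p = 0.117), Trim28 (-0.53, adjusted p = 0.136) and Trim12c (1.00, adjusted p = 0.152). Trim28, a corepressor also called KAP1, was at 106 and 119 CPM in GFP females, 122 and 130 CPM in GFP males, 127 and 122 CPM in GFP-GR100 females and 99.9 and 94.4 CPM in GFP-GR100 males.

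Markers of microglia moved with the groups. Of 12 listed markers 10 rose, where 2.19% of all tested genes rose. All 12 were detected, and their summed level was 454 to 640 CPM in GFP and 789 to 890 CPM in GFP-GR100. The ratio of the means was 1.65, against 3.32 for the cluster. GFP 3, with the highest microglia sum of GFP, had 17.1 CPM of the cluster, within the range of the other GFP libraries. Per 1000 neuronal reads it had 16.1 cluster reads, above the 8.41 to 12.9 of the other GFP libraries. Of 8 tested lymphocyte markers 0 were called by edgeR, and Cd3e, a chain of the T cell receptor complex, was at 0.168 CPM in GFP and 0.259 CPM in GFP-GR100 on average. Their summed level was 13.7 to 17.1 CPM in GFP and 16.5 to 20.6 CPM in GFP-GR100, most of it from Cd4. Choroid plexus markers moved the other way, with a summed level of 128 to 364 CPM in GFP and 32.3 to 88.2 CPM in GFP-GR100. Of 7 listed 1 fell (Folr1), where 0.324% of all tested genes fell. Whether either list bears on the TRIM members was not tested.

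**Figure D5:**
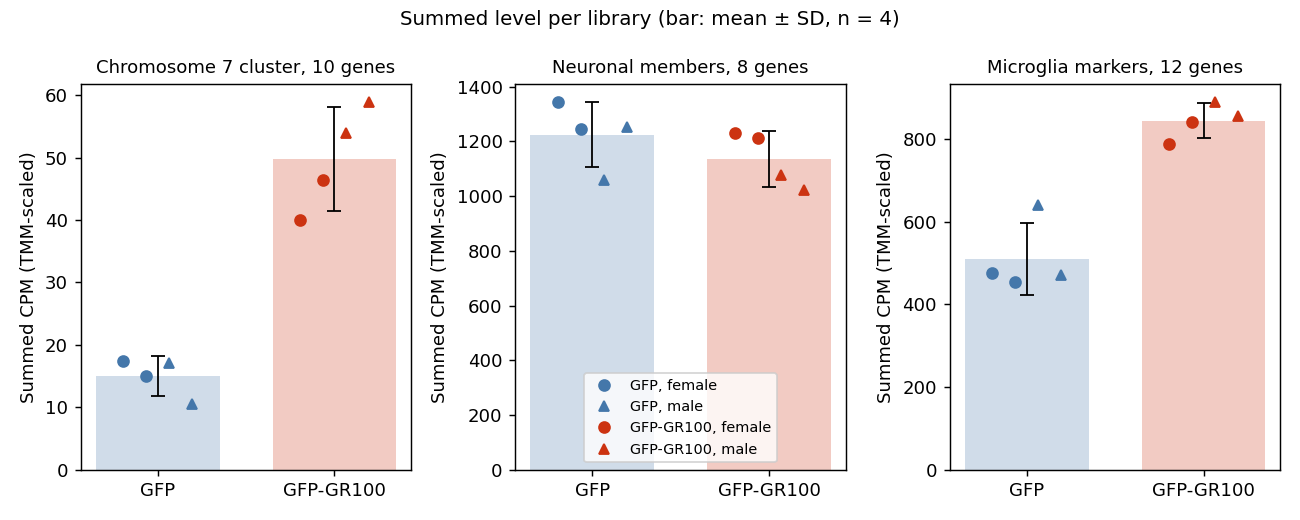
Summed CPM per library of the 10 cluster genes, the 8 neuronal members and the 12 microglia markers, with bars for the mean ± SD (n = 4), circles for females and triangles for males. The cluster and the microglia markers are higher in every GFP-GR100 library than in any GFP library, and the neuronal members overlap.

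Of 18 genes of the nucleic acid sensing pathways in which antiviral TRIM proteins act, 6 rose and 0 fell, with a median log2 fold change of 0.12. Over all tested genes, 2.19% rose and 0.324% fell. Ifih1, which encodes the RNA sensor MDA5, rose from 5.13 ± 1.41 to 20.6 ± 3.28 CPM (SD, n = 4, adjusted p = 0.00012). Ddx58, which encodes RIG-I, the substrate of Trim25, rose from 5.09 ± 1.47 to 18.8 ± 2.61 CPM (SD, n = 4, adjusted p = 0.000643). Dhx58 rose by 1.74 and the kinase Ikbke by 1.01 on the log2 scale, and the others called were Irf7 and Tmem173, which encodes STING, named because they are few. The adaptors Mavs, Traf3 and Traf6 and the Trim30a targets Tab2 and Tab3 were not called. Of the TRIM proteins listed under other symbols, Pml, the organiser of nuclear bodies, rose from 12.7 ± 1.21 to 17.5 ± 1.45 CPM (SD, n = 4, log2 fold change 0.46, adjusted p = 0.0176). Mid1 and Mid2, relatives of Trim9 that bind microtubules, were not called, and Mefv was not tested.

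Among 7 substrates or partners of the neuronal members, 0 were called by edgeR, and at an unadjusted p under 0.05 there was 1 in each direction. Of all 20987 tested genes, 1728 had such a p with a positive fold change and 1546 with a negative one. Among the 7, the gene with such a p and a negative fold change was Nefl, the neurofilament light chain that Trim2 acts on. It was at 455 ± 27.4 CPM in GFP and 374 ± 24.2 CPM in GFP-GR100 (SD, n = 4), and all GFP-GR100 values lay below all GFP values (log2 fold change -0.28, SE 0.09, adjusted p = 0.142).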

How the data were processed

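Total RNA from the cortex and hippocampus of 8 mice was sequenced as paired-end libraries from a stranded kit, per the labels' protocols. The deposited table gives whole-number counts per gene and RPKM values by the authors, with TopHat2 version 2.1.0, mm10, CASAVA, DESeq2 and R version 3.4.1 named in the submitters' processing notes. No source used here gives the counter, annotation release or strand setting. The deposited RPKM values equal counts per listed length and per library sum.

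Counts were analysed with edgeR version 4.0.16 in R version 4.3.3. The filter (filterByExpr, minimum count 10, minimum total 15) kept 20987 genes, scaled by TMM. The robust quasi-likelihood test had sex and group in the model, and Benjamini-Hochberg adjustment with a threshold of 0.05 ran over all genes tested. Each SE is the absolute log2 fold change divided by the square root of F. Intervals cover 95%. Replicates are separate animals numbered in accession order. Simulated counts for GFP-GR100 against GFP were drawn independently from a dispersion trend, without a sex effect, with 200 of 20804 genes changed. Of genes changed by 1 on the log2 scale, 83.8% were called in either direction, with 8 false calls. Variation shared within libraries was not simulated, so this rate does not measure sensitivity in the real libraries.

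The members and lists were chosen with earlier results of these data known. Named genes are all cluster and neuronal members, other called members, the smallest p of lists with none called, the 3 highest by RPKM, the 3 smallest p of the sex difference, and up to 4 called genes of each related list. Alternatives used DESeq2 version 1.42.0 and limma version 3.58.1. The neighbour window and the stretches of 50 bases were chosen after seeing the data.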

Additional observations from a re-analysis of the deposited data

Results flagged for a closer look

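One result stood out among the 56 groups of 4 libraries examined, of which chance marks about 1 in 20. Trim5 in GFP-GR100 had a highest library, GFP-GR100 4 at 2.64 CPM, whose gap to the next was 0.936 of the whole range, above Dixon's critical value for 4 samples. The other 3 GFP-GR100 libraries lay between 1.39 and 1.47 CPM, still above all GFP libraries.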

How the results depend on the processing

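The counts of members called higher (13) and lower (0), of cluster members called higher and of neuronal members called lower stayed within 1.5 times of their values under all 19 alternatives: other size factors, no filter, a mean of at least 1 CPM, DESeq2, limma-voom, limma-trend on log2(RPKM + 0.1) or log2(RPKM + 1), no sex covariate, the rRNA share as a covariate, a minimum log2 fold change of 1 in size, GFP 3 and GFP-GR100 4 left out together, and each library left out in turn. The lowest count of members higher was 10, with a mean of at least 1 CPM, where 42 members were tested. The same 13 members were called with DESeq2, limma-voom, no filter, no sex covariate and the rRNA share. Trim30b lost its call under 8 alternatives, among them limma-trend on log2(RPKM + 0.1) (adjusted p = 0.0622) and log2(RPKM + 1) (0.153), and the cause was not tested. Trim12a (0.98) and Trim56 (1.00 after rounding) fall just under a log2 fold change of 1. The median of the neuronal members was 0.016 with limma-trend on RPKM, above 0 rather than below, with none called. Over all tested genes the median was also above 0 in these fits, at 0.041 with log2(RPKM + 0.1) and 0.024 with log2(RPKM + 1). The neuronal median thus stayed under that of all tested genes, as in the main fit (-0.051 against -0.024). Depth limits Trim69, Trim30b, Trim30c and Trim6. No paired analysis was possible because the labels hold no number that pairs animals across the groups.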
